A study of Mus musculus with 2 samples.

Results

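The 9 genes described here encode collagen chains outside the main fibril-forming group, namely Col6a1, Col6a2, Col6a3, Col8a1, Col12a1, Col14a1, Col15a1, Col16a1 and Col18a1. They were taken by symbol from the gene columns of both count tables, which together hold 25595 genes, 44 of them collagen chain genes, and all 9 were present in both tables. Only cells in which 300 or more genes were detected and no more than 25% of molecules were mitochondrial entered the measurements and levels were taken per library and per cell class named from marker genes. The members were left out of the genes used to cluster and name the cells, so their levels were not used to form the classes.

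Collagen VI forms beaded microfilaments around cells, and its usual triple helix joins the chains of Col6a1, Col6a2 and Col6a3. The remaining members fall into other families. Col8a1 encodes a chain of the short network collagen VIII of vessel walls. Col12a1, Col14a1 and Col16a1 encode fibril-associated collagens that coat the surface of fibrils, and Col15a1 and Col18a1 encode the multiplexins of basement membrane zones, whose ends can be cleaved off as the fragments restin and endostatin. In the brain, most interstitial matrix lies in the meninges and around vessels, where fibroblasts make it.

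Mouse cerebral cortex was dissociated together with the meninges, and its cells were enriched on magnetic beads for CD140a, the PDGFRα protein. N-PRα-KO mice carried Nestin-Cre with both Pdgfra alleles floxed, and the comparison mice were WT C57BL/6J, which the labels give without Cre or floxed alleles. Nestin-Cre acts mainly in the neural lineage, so meningeal fibroblasts are not its main target. Each genotype had 1 library, and the labels give neither age, sex nor the number of animals, so genotype, animal, preparation and run cannot be told apart. The series was designed around the variety of activated fibroblasts in the cortex of these mice.

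The counts are unique molecular identifiers (UMIs), each a tag for 1 captured RNA molecule. Kept cells numbered 4186 in the N-PRα-KO library and 9895 in the WT library, with median depths before doublet removal of 5790.5 and 3284 UMIs. Of 8336 N-PRα-KO barcodes 4126 exceeded the mitochondrial limit, against 1329 of 11438 in the WT library. The libraries had 105 barcode labels in common, 38 of them among kept cells. Fibroblast-like cells numbered 957 (N-PRα-KO) and 512 (WT), with median depths of 6225 and 4278 UMIs. All 12 fibroblast markers, from which the class was named, had a UMI in its summed counts in each library. So did all 8 endothelial markers. In fibroblast-like cells Pdgfra itself stood at 703 CPM (N-PRα-KO) and 858 CPM (WT), and at 1989.8 and 4943 CPM in the 61 N-PRα-KO and 4158 WT oligodendrocyte lineage-like cells. Counts of this kind come from transcript 3′ ends, and the floxed exons are not given in the sources used here, so these values do not check the deletion. A level in CPM (counts per 1e6) is a gene's UMIs scaled to 1e6 UMIs of the class. All intervals below are 95% intervals for counting error only, and with 1 library per genotype no difference was tested.

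Promoter sequence is shown for the members on which the results below turn: the collagen VI chains, whose class patterns were compared with each other, and the multiplexins, which differed most between the libraries in fibroblast-like cells among members at 20 CPM or more. Each is the 250 bases before a RefSeq gene start on build GRCm38.p6, written along the gene's own strand, 5′ to 3′. The table matched 7 of the 9 symbols. Capitals mark a GC box (GGGCGG) or a CCAAT box (CCAAT) on either strand, so that CCGCCC and ATTGG are the same motifs read from the other strand. TATAAA was searched for as well.
Col6a1 (chr10:76726045-76726294, minus strand): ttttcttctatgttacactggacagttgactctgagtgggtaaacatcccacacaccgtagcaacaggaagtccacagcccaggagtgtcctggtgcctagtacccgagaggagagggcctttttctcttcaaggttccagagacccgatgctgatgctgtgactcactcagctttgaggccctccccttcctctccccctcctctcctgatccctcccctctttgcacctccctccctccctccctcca
Col6a2 (chr10:76623405-76623654, minus strand): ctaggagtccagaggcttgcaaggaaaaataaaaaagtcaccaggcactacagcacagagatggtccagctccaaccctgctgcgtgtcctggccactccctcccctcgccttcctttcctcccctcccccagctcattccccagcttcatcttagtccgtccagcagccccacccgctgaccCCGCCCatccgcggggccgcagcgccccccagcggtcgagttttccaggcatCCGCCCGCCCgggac
Col6a3 (chr1:90843972-90844221, minus strand): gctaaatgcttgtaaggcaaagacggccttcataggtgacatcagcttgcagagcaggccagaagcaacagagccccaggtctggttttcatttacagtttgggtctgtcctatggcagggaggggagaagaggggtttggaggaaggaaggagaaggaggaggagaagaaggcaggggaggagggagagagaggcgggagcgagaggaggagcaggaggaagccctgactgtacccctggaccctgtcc
Col15a1 (chr4:47207762-47208011, plus strand): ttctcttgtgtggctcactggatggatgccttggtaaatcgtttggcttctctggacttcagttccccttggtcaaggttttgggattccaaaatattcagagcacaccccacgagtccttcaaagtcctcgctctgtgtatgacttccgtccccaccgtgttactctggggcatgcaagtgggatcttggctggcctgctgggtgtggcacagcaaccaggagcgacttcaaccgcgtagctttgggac
Col18a1 (chr10:77166531-77166780, minus strand): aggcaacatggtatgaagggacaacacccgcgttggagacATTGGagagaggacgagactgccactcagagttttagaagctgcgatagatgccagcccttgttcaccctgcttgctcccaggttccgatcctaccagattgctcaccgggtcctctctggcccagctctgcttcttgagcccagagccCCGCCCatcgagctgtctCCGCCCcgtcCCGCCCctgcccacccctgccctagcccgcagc

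The shown Col6a2 start had 3 GC boxes, the last 2 of which overlap, and the shown Col18a1 start had 3 GC boxes and 1 CCAAT box. Col6a1, Col6a3 and Col15a1 held none of the 3 motifs in these windows. Over all 32851 promoters of the table, 32.7% held a GC box, 33.8% a CCAAT box and 12.4% TATAAA. Col6a2 and Col18a1 each have another RefSeq start, at which Col6a2 had 1 GC box and Col18a1 had none of the motifs. Col6a1 and Col6a2 lie next to each other on the minus strand of chromosome 10, with 85161 bases between them and no other protein-coding gene in that gap. The Col18a1 gene (chr10:77052178-77166548) overlaps Slc19a1 on the opposite strand. Col12a1, Col14a1 and Col15a1 also overlap genes on the opposite strand, and Col6a3 overlaps Gm36970 on its own strand. No source used here says whether the counting used strand, so reads of the overlapping stretches cannot be assigned with certainty.

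Among the classes, 7 of the 9 members were at least 2-fold higher in fibroblast-like cells than in all other cells of the same library, in both libraries. Of genes at 20 CPM or more in fibroblast-like or in all other cells, 8.35% of 8204 passed the same fold in the N-PRα-KO library. In the WT library 11% of 7939 did. Col8a1 and Col14a1 were the exceptions, but Col14a1 lay under 20 CPM on both sides in each library, and Col8a1 did so in the WT library. Fibroblast-like cells held from 54.7% of the UMIs of Col16a1 to 87.9% of those of Col6a3 among these 7 members in the N-PRα-KO library, and from 21.1% for Col12a1 to 86.5% for Col15a1 in the WT library. Arachnoid barrier-like cells, the epithelium-like layer between dura and cerebrospinal fluid, were the other main site, with 51 N-PRα-KO and 109 WT cells. Of their 7 listed markers, Slc47a1, Cdh1, Crabp2, Cldn11 and Klf5 stood between 84.3 and 839 CPM in N-PRα-KO cells. In WT cells they stood between 157 and 1121 CPM, whereas Krt18 had 2 UMIs in N-PRα-KO cells and 0 in WT cells. With Dpp4 included, the 7 markers summed to 2120 CPM (N-PRα-KO) and 2329 CPM (WT), against 359 and 593 CPM in fibroblast-like cells. In oligodendrocyte lineage-like cells they summed to 3846 CPM (N-PRα-KO), above the arachnoid barrier-like class, and 653 CPM (WT). Fibroblast markers summed to 5721 CPM in N-PRα-KO and 7503 CPM in WT arachnoid barrier-like cells, against sums of 6698 and 7818 CPM in fibroblast-like cells.

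**Figure D1:**
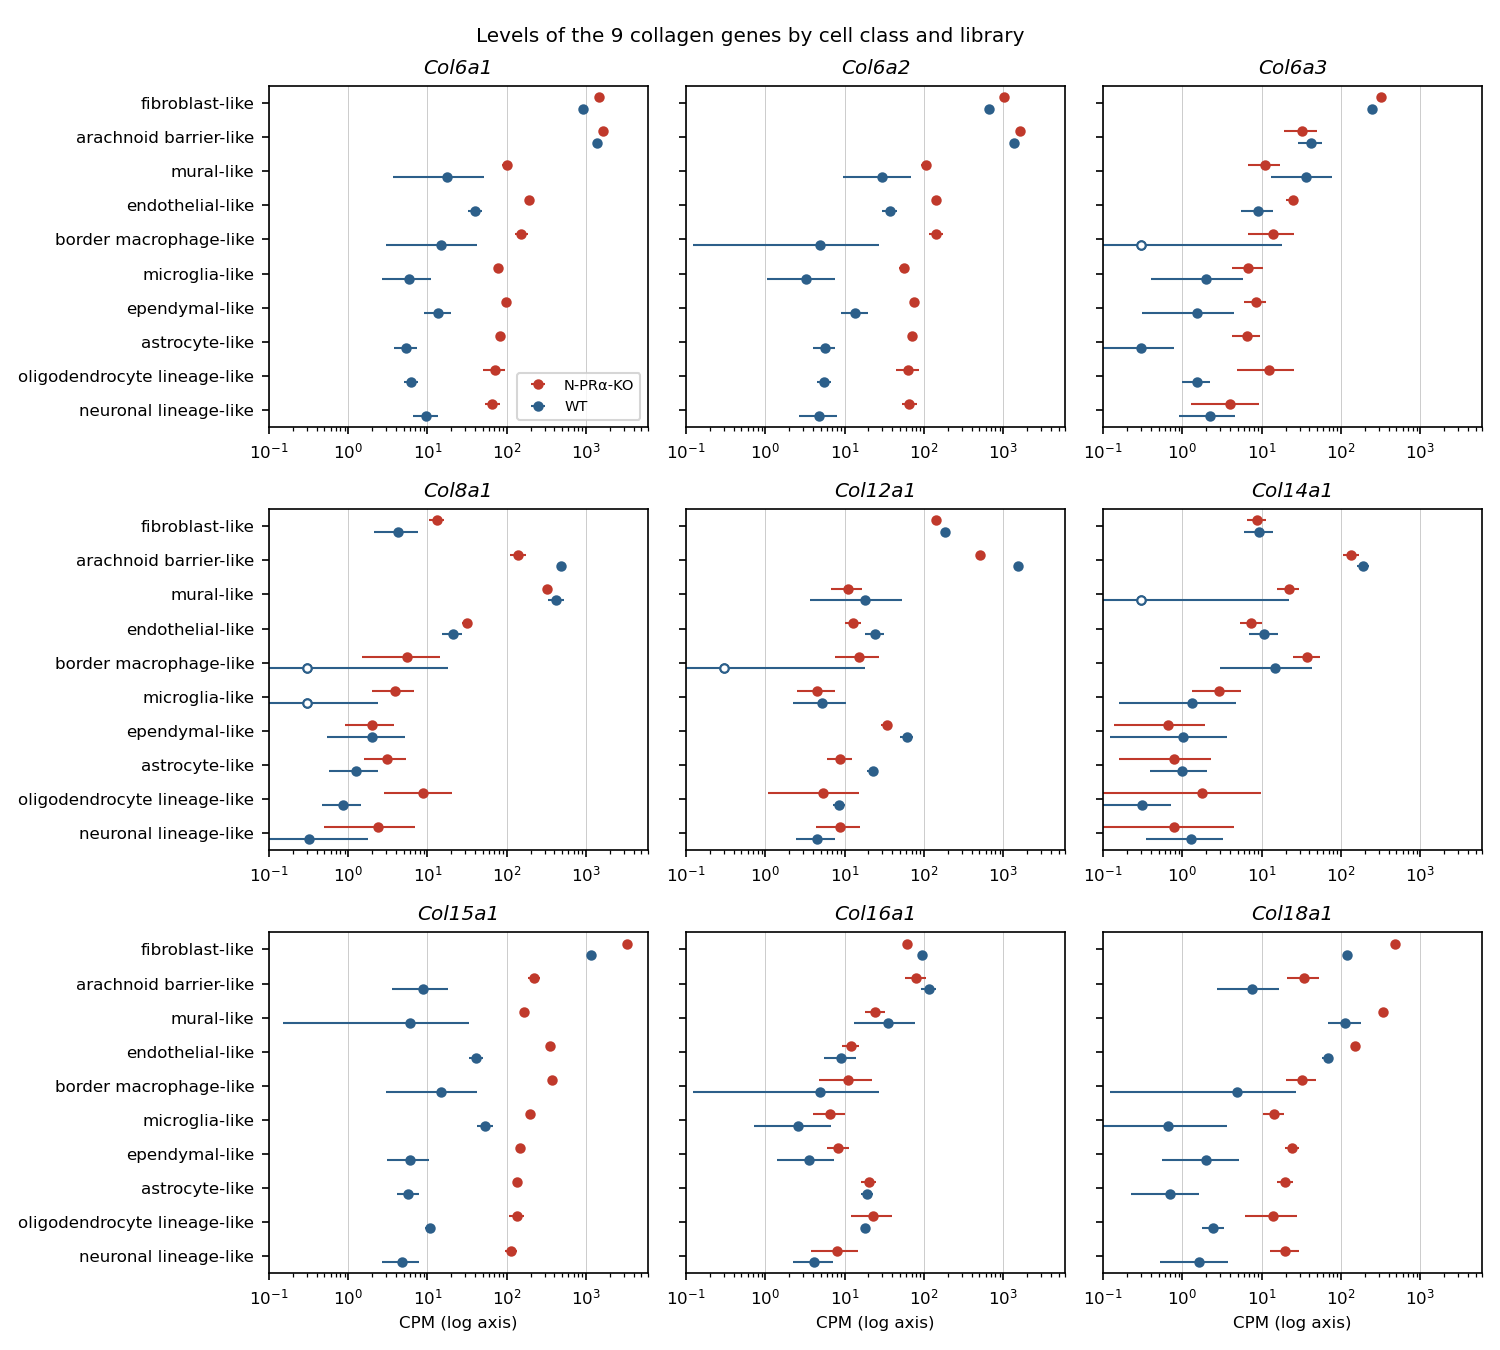
CPM of each member (log axis) in the 10 cell classes that had 50 or more cells from each library, N-PRα-KO above WT in each row. Lines are 95% counting intervals and open points, drawn at 0.3, had 0 UMIs. Fibroblast-like or arachnoid barrier-like cells led in every panel and library except for Col8a1 in the N-PRα-KO library, and the neural and microglial classes of the N-PRα-KO library sat above those of the WT library for Col6a1, Col6a2 and Col15a1.

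Col6a1 and Col6a2, the chains that every collagen VI helix needs, had nearly the same class pattern. Col6a1 (chr10:76708792-76726168) was highest in arachnoid barrier-like cells, with 1639.6 CPM (1538 to 1746) in N-PRα-KO cells and 1389 CPM (1308 to 1473) in WT cells. Fibroblast-like cells followed at 1456 CPM (1428 to 1486) and 915 CPM (878 to 952). The intervals of these classes did not overlap in either library. Col6a2 (chr10:76595762-76623630) stood at 1653 CPM in N-PRα-KO and 1384 CPM in WT arachnoid barrier-like cells, against 1037 and 662 CPM in fibroblast-like cells. Endothelial-like cells came next for both genes, with Col6a1 at 192 CPM in N-PRα-KO cells and 40.1 CPM in WT cells, and Col6a2 at 144 and 37.4 CPM. Below them the intervals of neighbouring classes overlapped, except between border macrophage-like and mural-like cells for Col6a1 in the N-PRα-KO library, and for Col6a2 just above (N-PRα-KO) and just below (WT) ependymal-like cells.

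The levels of Col6a1 and Col6a2 over the 20 profiles, 10 classes in each library, had a Pearson r of 0.99 on log2(CPM + 10), and each was the gene most like the other among 11953 genes. The profiles share 2 libraries, so this is a description. Islr, a leucine-rich repeat gene that is also in the fibroblast marker list, followed for both, at 0.97 for Col6a1 and 0.96 for Col6a2.

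Col6a3 (chr1:90765923-90843971), which encodes the largest chain of the helix, did not follow them into arachnoid barrier-like cells. It stood at 322 CPM (308 to 336) in N-PRα-KO and 245 CPM (226 to 265) in WT fibroblast-like cells, against 32.0 CPM (19.3 to 49.998) in N-PRα-KO and 41.3 CPM (28.4 to 58.0) in WT arachnoid barrier-like cells. Fibroblast-like cells were thus 10.1-fold above that class in the N-PRα-KO library and 5.92-fold above it in the WT library, while Col6a1 and Col6a2 were lower there than in the arachnoid barrier-like class. Of the UMIs of the 3 chains, Col6a3 made up 0.963% (exact binomial interval 0.581 to 1.4998) in N-PRα-KO and 1.47% (1.01 to 2.06) in WT arachnoid barrier-like cells. In fibroblast-like cells its share was 11.4% (10.98 to 11.9) in N-PRα-KO and 13.4% (12.5 to 14.4) in WT cells.

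**Figure D2:**
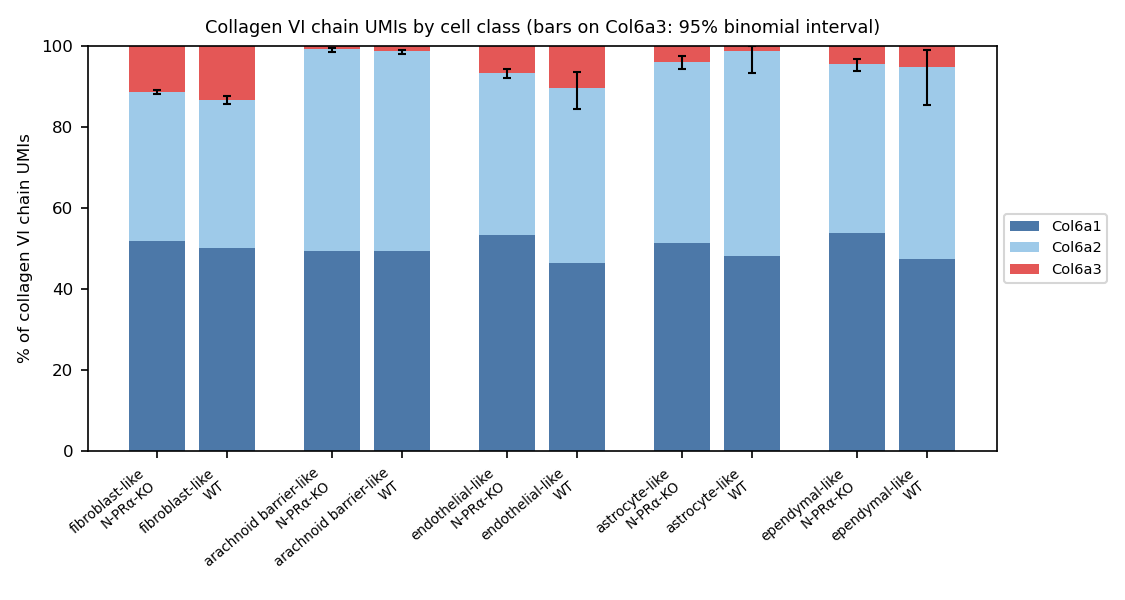
Share of the UMIs of Col6a1, Col6a2 and Col6a3 taken by each chain in 5 cell classes, N-PRα-KO left of WT; the black bar is the 95% exact binomial interval of the Col6a3 share. Col6a3 was 0.963% and 1.47% of the UMIs in arachnoid barrier-like cells, against 11.4% and 13.4% in fibroblast-like cells.

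Chains that can take the place of Col6a3 were looked for in the same classes. Col6a4 and Col6a6 had 0 UMIs in arachnoid barrier-like cells of both libraries, and Col6a5 had 0 UMIs in N-PRα-KO and 2 in WT cells. A count of 0 allows a level of up to 5.06 CPM (3 counts of the class total) in N-PRα-KO cells and 3.76 CPM in WT cells. Col6a5 was instead found in ependymal-like cells, which line the ventricles, at 67.0 CPM (59.6 to 74.9) in N-PRα-KO cells and 34.7 CPM (27.0 to 43.9) in WT cells. In every other compared class it stood below 3 CPM. In ependymal-like cells Col6a1 was at 97.4 CPM in N-PRα-KO cells and 13.6 CPM in WT cells, against 82.3 and 5.34 CPM in astrocyte-like cells.

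Within fibroblast-like cells, all 3 chains of collagen VI were detected together in 73.9% (N-PRα-KO) and 48.6% (WT) of cells. After thinning each cell to 2000 UMIs, which left 952 N-PRα-KO and 468 WT cells, the shares were 35.8% and 22.6%. Microglia-like cells, which are not a known source of these chains, had a Col6a1 UMI in 36.2% (N-PRα-KO) and 1.71% (WT) of cells, where the median depth was 5553 and 2670 UMIs, and in 13.9% and 1.496% after thinning. Fibroblast-like cells had a Col6a1 UMI in 98.3% (N-PRα-KO) and 89.6% (WT) of cells, and in 89.0% and 75.9% after thinning.

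Col8a1 (chr16:57624258-57754737) was the member with the most distinct pattern. In mural-like cells, the smooth muscle cells and pericytes of vessels, it stood at 326 CPM in N-PRα-KO cells and 424 CPM in WT cells. Arachnoid barrier-like cells had 139.9 CPM (111 to 173) in N-PRα-KO cells and 477 CPM (430 to 528) in WT cells. Among the 10 compared classes, mural-like cells were therefore highest in the N-PRα-KO library, and in the WT library the intervals of both classes overlapped. Endothelial-like cells had 31.7 and 20.7 CPM, and fibroblast-like cells only 13.2 and 4.25 CPM. The 39 choroid plexus-like cells, found in the N-PRα-KO library alone and so not among the compared classes, had 343 CPM (296 to 396), an interval that overlapped that of N-PRα-KO mural-like cells (300.1 to 353). The genes most like Col8a1 over the 20 profiles were Aoc3, an amine oxidase of smooth muscle, Adamts17, a secreted protease, and Pgf, a vascular growth factor, with r of 0.97, 0.96 and 0.95.

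The fibril-associated members Col12a1 and Col14a1 marked arachnoid barrier-like cells more than fibroblast-like cells. Col12a1 (chr9:79598991-79718831) was at 506 CPM (450 to 566) in N-PRα-KO and 1540.45 CPM (1456 to 1629) in WT arachnoid barrier-like cells, 3.55-fold and 8.33-fold above the fibroblast-like cells of the same library. Col14a1 (chr15:55307750-55520803) was at 135 CPM in N-PRα-KO and 190.4 CPM in WT arachnoid barrier-like cells, and at 8.71 and 9.28 CPM in fibroblast-like cells. Col16a1 (chr4:130047840-130099283) was low throughout, with 79.2 CPM in N-PRα-KO and 115 CPM in WT arachnoid barrier-like cells against 60.9 and 95.9 CPM in fibroblast-like cells, and the intervals of these classes overlapped in both libraries.

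For Col12a1 the genes next in likeness were Calhm5, a channel gene, and Efemp1 and Mfap5, which encode matrix glycoproteins of elastic fibres, with r of 0.95, 0.95 and 0.94. Col16a1 was most like Twist2, a mesenchymal transcription factor (r 0.95), Thbs2, which encodes thrombospondin (0.91), and P3h3, a prolyl hydroxylase family gene (0.91). Col14a1 was most like Lypd2, Fxyd5 and Ahnak2, with r of 0.91, 0.90 and 0.90.

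The multiplexin Col15a1 (chr4:47208161-47313167) had the largest ratio among the members between fibroblast-like cells and the class next in level in the WT library. It stood at 3244 CPM (3201 to 3288) in N-PRα-KO and 1167 CPM (1126 to 1210) in WT fibroblast-like cells, 8.74-fold and 21.8-fold above the class next in level. Border macrophage-like cells were that class in the N-PRα-KO library, at 371 CPM, and microglia-like cells in the WT library, at 53.6 CPM. Fibroblast markers summed to 617 CPM in N-PRα-KO and 48.8 CPM in WT border macrophage-like cells, and the source of their Col15a1 RNA was not tested. The other multiplexin, Col18a1, was shared with vessel cells. Fibroblast-like cells had 482 CPM (465 to 499) in N-PRα-KO cells and 119 CPM (106 to 133) in WT cells, mural-like cells 337 and 113 CPM, and endothelial-like cells 148 and 68.1 CPM. In the WT library the intervals of fibroblast-like and mural-like cells overlapped.

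Genes most like Col15a1 were Slc6a13, a GABA transporter in the fibroblast marker list, Ptgds, which encodes prostaglandin D synthase, and Apod, which encodes apolipoprotein D, with r of 0.97, 0.95 and 0.91. Those most like Col18a1 were Cnn2, a calponin of the actin cytoskeleton, the basement membrane collagen Col4a1 and Vtn, which encodes vitronectin, with r of 0.96, 0.96 and 0.95. Col6a3 was most like Enpp1, a pyrophosphatase (0.96), Xpnpep2, an aminopeptidase (0.95), and the fibrillar collagen Col5a1 (0.93).

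Between the libraries, the collagen VI chains and the multiplexins were higher in N-PRα-KO than in WT fibroblast-like cells as measured, and Col12a1 and Col16a1 were lower. Of the 7 members at 20 CPM or more in either library, 2 were at least 2-fold higher in N-PRα-KO cells and 0 were at least 2-fold lower. Of all 7300 genes at that level, 15.8% were at least 2-fold higher and 8.23% at least 2-fold lower. The median log2 ratio of the 7 members was 0.65, beside -0.01 over all 7300 genes. Col8a1 and Col14a1 lay under 20 CPM in both libraries and entered neither count.

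The 2 members past the fold were both multiplexins. Col18a1, at 482 against 119 CPM, had a log2 ratio of 2.02 (1.85 to 2.19), a 4.05-fold higher level in N-PRα-KO cells. Col15a1, at 3244 against 1167 CPM, had a log2 ratio of 1.47 (1.42 to 1.53), which is 2.78-fold. Both genes were also detected in more cells, Col18a1 in 80.0% (N-PRα-KO) and 36.1% (WT) of fibroblast-like cells and Col15a1 in 92.0% and 66.4%. After thinning, the shares were 55.1% and 19.02% for Col18a1, and 82.9% and 55.8% for Col15a1. In microglia-like cells after thinning, Col18a1 was found in 3.48% (N-PRα-KO) and 0.249% (WT) of cells, and Col15a1 in 30.4% and 10.7%.

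The collagen VI chains had smaller ratios. Col6a1 had a log2 ratio of 0.67 (0.61 to 0.74), Col6a2 of 0.65 (0.57 to 0.72) and Col6a3 of 0.39 (0.27 to 0.52). Their intervals excluded 0, and the interval of Col6a3 lay below that of each of the other two. Col12a1, at 142 CPM in N-PRα-KO and 185 CPM in WT cells, had a log2 ratio of -0.38 (-0.54 to -0.21), and Col16a1, at 60.9 and 95.9 CPM, one of -0.66 (-0.89 to -0.42). Col8a1 had 88 UMIs in N-PRα-KO and 11 in WT fibroblast-like cells, and Col14a1 had 58 and 24, with a log2 ratio of -0.09 (-0.80 to 0.66) for Col14a1.

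**Figure D3:**
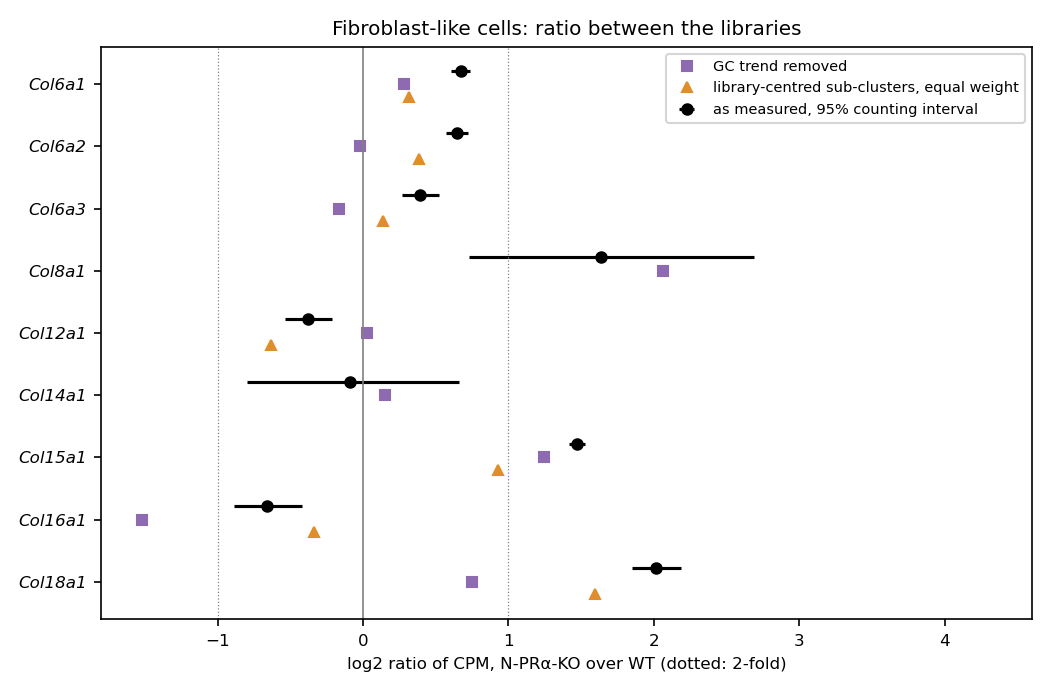
Log2 ratio of CPM, N-PRα-KO over WT, for each member in fibroblast-like cells (black, with 95% counting interval), with the GC trend removed (squares) and as the mean of 2 sub-clusters present in both libraries (triangles, not given for Col8a1 and Col14a1). Col15a1 and Col18a1 lay above 0 under all 3 and Col16a1 below 0, while Col6a2, Col6a3, Col12a1 and Col14a1 changed sign with the GC trend removed.

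Base composition moved with these ratios. The log2 ratios of 7277 genes in this class, N-PRα-KO over WT, had a Spearman rho of 0.56 with the GC content of the last 500 transcript bases. Col18a1 was the richest member in GC there, at 59.0%, and Col8a1 and Col12a1 the poorest, at 33.6% and 34.4%. With the trend over all genes removed, the log2 ratios were 1.24 for Col15a1, 0.75 for Col18a1, 0.28 for Col6a1, -0.02 for Col6a2, -0.17 for Col6a3, 0.03 for Col12a1 and -1.52 for Col16a1. Col15a1 was then the only member at least 2-fold higher, where 9.99% of all genes were, and Col16a1 the only member at least 2-fold lower, where 7.05% were. The part of base composition in the measured ratios was not tested.

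**Figure D4:**
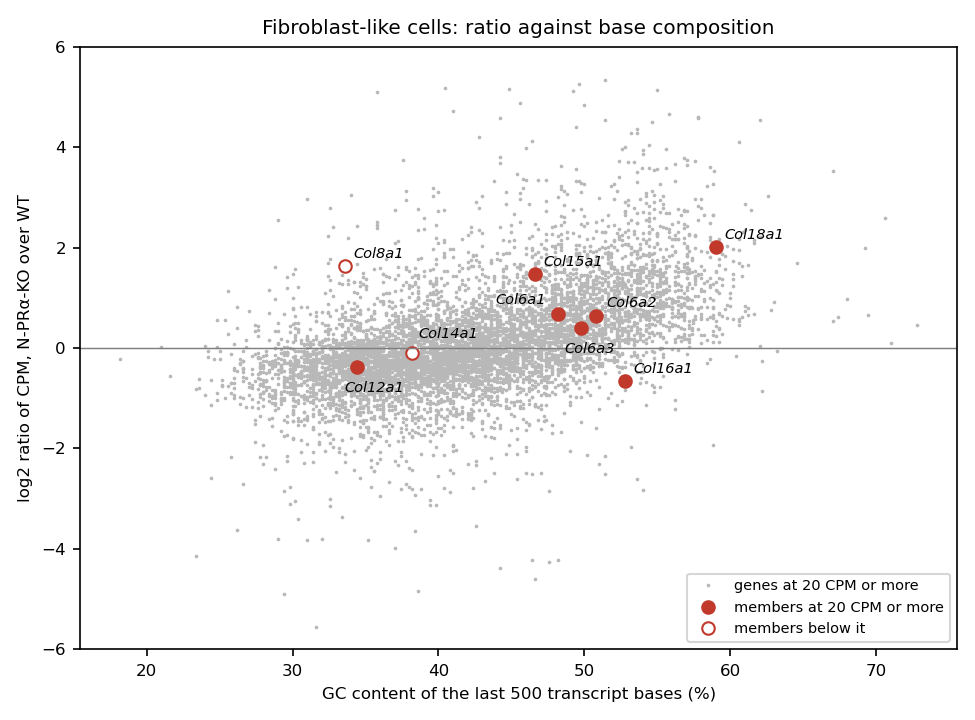
Log2 ratio of CPM, N-PRα-KO over WT, in fibroblast-like cells against the GC content (%) of the last 500 transcript bases, with genes at 20 CPM or more in grey, except 24 with no GC value or a ratio off the axis, and the members in red. Col18a1 lies at 59.0% GC and Col16a1, at 52.8% GC, lies below most genes of like composition.

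RNA of these genes was also counted at low levels in cells that are not known to make it. In the oligodendrocyte lineage-like, astrocyte-like, neuronal lineage-like, microglia-like and ependymal-like classes, Col15a1 ran from 113.5 to 195 CPM in N-PRα-KO cells and from 4.81 to 53.6 CPM in WT cells. Col6a1 ran from 65.9 to 97.4 CPM in N-PRα-KO cells and from 5.34 to 13.6 CPM in WT cells. The median level of these classes amounted to 4.17% of the Col15a1 level of N-PRα-KO fibroblast-like cells and 0.517% of that of WT cells, and to 5.37% and 0.676% for Col6a1. Its subtraction left log2 ratios of 1.42 for Col15a1, 1.98 for Col18a1 and 0.60 for Col6a1 in fibroblast-like cells.

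In arachnoid barrier-like cells the members took a different order. All 9 were at 20 CPM or more, 2 of them at least 2-fold higher and 2 at least 2-fold lower in the N-PRα-KO library, where 17.6% of 7296 genes were higher and 10.7% lower by that fold. The lower pair was Col8a1, at 139.9 CPM in N-PRα-KO and 477 CPM in WT cells (log2 ratio -1.77, -2.13 to -1.42), and Col12a1, at 506 and 1540.45 CPM (-1.61, -1.79 to -1.42). With the GC trend removed the ratios were -1.29 and -1.15. Fewer N-PRα-KO than WT cells of this class had a UMI of these genes after thinning, with 20.8% against 42.3% for Col8a1 and 66.7% against 88.5% for Col12a1, over 48 N-PRα-KO and 104 WT cells. The shares before thinning were 39.2% and 60.6% for Col8a1 and 88.2% and 99.1% for Col12a1, at median depths of 9890 and 6257 UMIs. In microglia-like cells both genes were found in at most 2.56% of cells before thinning. Markers of mural cells, the other main site of Col8a1, summed to 595 CPM in N-PRα-KO and 143 CPM in WT arachnoid barrier-like cells, and their part in the Col8a1 values was not tested. Clustering without the mitochondrial limit gave 187 N-PRα-KO and 188 WT cells of this class, against 51 and 109 with it. The libraries thus differed in how many such cells were left under the limit.

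Col6a1 and Col6a2 differed little there, with log2 ratios of 0.24 (0.11 to 0.36) and 0.26 (0.13 to 0.38). Both turned negative with the GC trend removed (-0.16 and -0.46) and without the mitochondrial limit (-0.03 and -0.07), and Col6a2 also after thinning (-0.05). Col14a1 had a log2 ratio of -0.50 (-0.91 to -0.10) and Col16a1 of -0.54 (-1.08 to -0.02), and the Col6a3 interval, -1.26 to 0.49, included 0. The higher pair was Col15a1, at 219 CPM in N-PRα-KO and 8.77 CPM in WT cells, and Col18a1, at 33.7 and 7.51 CPM. These N-PRα-KO values lie near the levels of the neural and microglial classes of the same library, whose median was 61.7% of the Col15a1 value and 58.2% of the Col18a1 value.

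Vessel classes gave more values for Col18a1 and Col8a1. Col18a1 had a log2 ratio of 1.57 (0.91 to 2.31) in mural-like cells and 1.12 (0.87 to 1.38) in endothelial-like cells. With the GC trend removed these were 0.75 and -0.19, so that neither passed the fold and the endothelial-like value changed sign. In mural-like cells 4 of 8 members at 20 CPM or more were at least 2-fold higher, where 11.8% of 7099 genes were, and 1 was at least 2-fold lower, where 13.7% were. In endothelial-like cells 5 of 7 members were at least 2-fold higher, where 17.2% of 7304 genes were, and 0 were lower, where 9.52% were. Beside Col18a1, the higher members in mural-like cells were Col6a1, Col6a2 and Col15a1, which had 184, 198 and 305 UMIs in the N-PRα-KO library and 3, 5 and 1 UMIs in the WT library. Their N-PRα-KO levels were 100.2, 108 and 166 CPM. In the neural and microglial classes of the same library Col6a1 reached 97.4, Col6a2 75.1 and Col15a1 195 CPM. The Col6a2 level of mural-like cells (93.3 to 124 CPM) lay above the highest of these classes, ependymal-like cells (67.3 to 83.5 CPM). In endothelial-like cells, Col15a1 was at 352 CPM in N-PRα-KO and 41.5 CPM in WT cells, and Col6a1, Col6a2 and Col6a3 were higher as well. Col6a1, Col6a2 and Col15a1 were also at least 2-fold higher in N-PRα-KO astrocyte-like, neuronal lineage-like, ependymal-like, microglia-like, oligodendrocyte lineage-like and border macrophage-like cells. In that order of classes, 14.1%, 15.7%, 14.4%, 16.5%, 17.2% and 15.9% of all genes were higher by that fold. WT border macrophage-like cells had only 3, 1 and 3 UMIs of Col6a1, Col6a2 and Col15a1. Fibroblast markers summed to 824 CPM in N-PRα-KO and 517 CPM in WT endothelial-like cells, and the part of fibroblast RNA in these values was not tested. Col8a1 was lower in N-PRα-KO mural-like cells by a log2 ratio of -0.38 (-0.74 to -0.003), which was 0.14 with the GC trend removed, and WT mural-like cells numbered only 54.

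Fibroblast-like cells were clustered again, without the members, to see how the genes varied inside the class. The libraries separated almost completely. Of N-PRα-KO cells, 510 fell in a sub-cluster led by Fam210b, Fam163a, Kcnn3, Cygb and Nostrin, the Cygb sub-cluster below, and 382 in one led by C4b, A2m, Fibin, H19 and Txnip, the C4b sub-cluster. Of WT cells, 354 fell in a sub-cluster led by Ptgs2, Coch, Atf3, Slc5a5 and Klf4, the Ptgs2 sub-cluster, and 90 in one led by Fndc1, Gpc3, Emp1, Klf2 and Myc, the Fndc1 sub-cluster. Dividing cells led by Top2a, Prc1, Mki67, Ccna2 and Pclaf came from both libraries, 35 N-PRα-KO and 52 WT, as did cells led by Prg4, Dapl1, Egln3, Cdh1 and Thsd4, 29 and 14. By mean log2 fold against the other fibroblast-like cells, perivascular and pial markers were highest in the Cygb sub-cluster (1.07 and 0.72) and arachnoid markers in the Ptgs2 sub-cluster (1.39) and then the C4b sub-cluster (0.61).

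**Figure D5:**
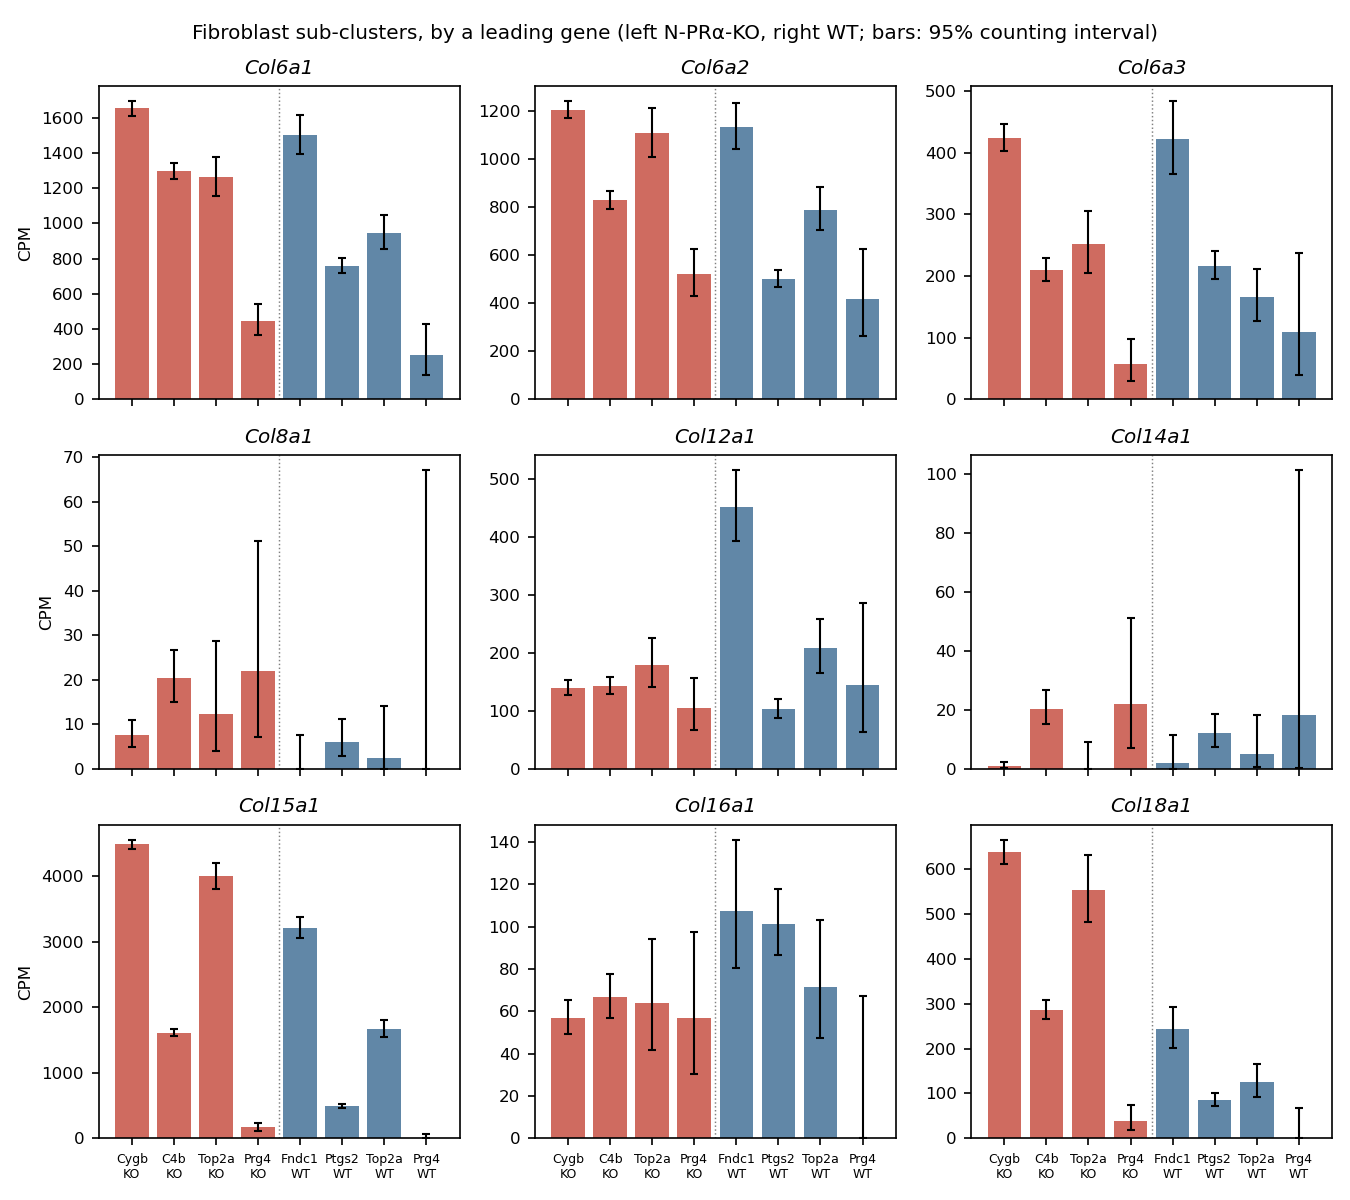
CPM of each member in the fibroblast sub-clusters, named by a leading gene, with N-PRα-KO bars left of the dotted line and WT bars right of it; error bars are 95% counting intervals. Col15a1 was 4487 CPM in the Cygb sub-cluster of the N-PRα-KO library and 3209 CPM in the Fndc1 sub-cluster of the WT library, against 1615 CPM in the C4b and 492 CPM in the Ptgs2 sub-cluster.

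Each library held a sub-cluster rich and a sub-cluster poor in Col15a1. In the N-PRα-KO library, the Cygb sub-cluster had 4487 CPM (4417 to 4557) and the C4b sub-cluster 1615 CPM (1565 to 1666). In the WT library, the Fndc1 sub-cluster had 3209 CPM (3051 to 3373) and the Ptgs2 sub-cluster 492 CPM (459 to 527). Col18a1 followed the same order, at 638 and 287 CPM in the Cygb and C4b sub-clusters and 244 and 85.5 CPM in the Fndc1 and Ptgs2 sub-clusters. All 3 collagen VI chains did too. Col6a3 was at 424 and 210.1 CPM in the N-PRα-KO pair and 422 and 217 CPM in the WT pair. Col6a1 was at 1653 and 1297 CPM in the N-PRα-KO pair and 1500 and 759 CPM in the WT pair. For Col6a2 the levels were 1206 and 830 CPM in the N-PRα-KO pair and 1136 and 503 CPM in the WT pair.

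Within the N-PRα-KO library, Col15a1, Col18a1 and Col6a3 were at least 2-fold higher in the Cygb than in the C4b sub-cluster (log2 ratios 1.47, 1.15 and 1.01), where 6.05% of genes were, and 6.16% were at least 2-fold lower. Within the WT library, Col15a1, Col12a1, Col18a1 and Col6a2 were at least 2-fold higher in the Fndc1 than in the Ptgs2 sub-cluster (2.71, 2.13, 1.51 and 1.17), where 8.44% of 6792 genes were, and 10.4% were at least 2-fold lower. The log2 ratios with the GC trend removed were 1.36, 1.07 and 0.92 in the N-PRα-KO library and 2.63, 2.09, 1.34 and 1.102 in the WT library. Col8a1 and Col14a1 ran the other way in the N-PRα-KO library and were at least 2-fold lower in the Cygb sub-cluster. Col8a1 was at 7.59 CPM in the Cygb and 20.3 CPM in the C4b sub-cluster (log2 ratio -1.42, -2.15 to -0.72), and Col14a1 had 3 and 50 UMIs.

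Col12a1 was the member that set the WT Fndc1 sub-cluster apart. It stood at 451 CPM (393 to 515) there, against 140.03 and 143 CPM in the Cygb and C4b sub-clusters of the N-PRα-KO library and 103 CPM in the WT Ptgs2 sub-cluster. Among sub-clusters with at least 14 cells of a library, the cells led by Prg4 had the least Col15a1, with 167 CPM in N-PRα-KO cells and 0 UMIs in WT cells, and the least Col6a1, with 448 and 255 CPM. The dividing cells lay within 2-fold of the other fibroblast-like cells for all 7 members at 20 CPM or more in both libraries, where 9.6% and 13.1% of all genes were at least 2-fold higher and 7.89% and 7.5% at least 2-fold lower. Col15a1 was at 4001 CPM in N-PRα-KO and 1669.5 CPM in WT dividing cells, against 3195 and 1078 CPM in the other fibroblast-like cells of each library.

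Because the libraries barely shared a sub-cluster, the comparison between them was repeated on narrower groups of cells, in settings chosen after the separation had been seen. Library means were removed before clustering, which gave 2 sub-clusters with at least 20 cells of each library. In the first, led by Mfap5, Eln, Col1a1, Sulf1 and Ngfr with 155 N-PRα-KO and 141 WT cells, Col18a1 had a log2 ratio of 1.39 (513 CPM in N-PRα-KO and 195 CPM in WT cells) and Col15a1 of 0.72 (4057 and 2456 CPM). Col12a1 was at -0.80 (193 and 337 CPM). Col18a1 was the only member at 20 CPM or more past the 2-fold threshold with 3 or more UMIs in both libraries, where 16.3% of genes were higher and 8.93% lower by that fold. Col8a1 had 29 UMIs in N-PRα-KO and 0 in WT cells of this sub-cluster.

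In the second, the dividing cells (39 N-PRα-KO and 61 WT), the log2 ratios were 1.80 for Col18a1 and 1.13 for Col15a1, with 18.5% of 7843 genes at least 2-fold higher and 13.8% lower. The sub-clusters rich in Col15a1, Cygb of the N-PRα-KO library over Fndc1 of the WT library, gave 1.39 for Col18a1, 0.48 for Col15a1, 0.14 for Col6a1 and -1.69 for Col12a1, where 19.6% of genes were at least 2-fold higher and 9.61% lower. This pair was matched on a high level of Col15a1, itself a member, and Col18a1 followed the same order. The pair therefore cannot show how either multiplexin differs between like cells. Perivascular and pial scores were also lower in the Fndc1 than in the Cygb sub-cluster. The sub-clusters with the higher arachnoid scores, C4b over Ptgs2, gave 1.75 for Col18a1, 1.72 for Col15a1, 1.74 for Col8a1, 0.77 for Col6a1 and 0.47 for Col12a1, where 15.1% were higher and 7.38% lower. Col18a1 was thus at least 2-fold higher in the N-PRα-KO library in each of these 4 comparisons as measured. With the GC trend removed its log2 ratios in these comparisons were 0.13, 0.43, 0.05 and 0.50.

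Col12a1 and Col6a3 changed sign with the cells compared. Col12a1 was lower in the N-PRα-KO library in 3 of the 4 comparisons and higher in C4b over Ptgs2. Col6a3 was at -0.22 (-0.45 to 0.01), 0.50 (0.07 to 0.94), 0.01 (-0.20 to 0.23) and -0.05 (-0.24 to 0.15), so that only the interval of the dividing cells excluded 0. Col15a1 without the cluster that holds most Cygb cells (599 N-PRα-KO and 0 WT cells) had a log2 ratio of -0.11, against 1.47 with it. Markers of other cell types were also counted in fibroblast-like cells. Endothelial markers, all 8 detected in both libraries, summed to 2040.4 CPM in N-PRα-KO and 3678 CPM in WT cells, against 13757 and 9908 CPM in endothelial-like cells. Mural markers summed to 2514 CPM in N-PRα-KO and 2777 CPM in WT cells, with all 9 mural markers detected in N-PRα-KO cells and 7 of 9 in WT cells, where Kcnj8 and Myh11 were at 0. Mural-like cells had 36075 and 38319 CPM of the same markers. Vtn, a marker in the mural list, was among the leading genes of a fibroblast-like cluster when the WT library was clustered on its own. The part of endothelial and mural cells in the Col18a1 values was not tested.

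Genes that work with these collagens were described from lists, by their counts at the same 2-fold threshold in fibroblast-like cells, to be read against the 15.8% of all 7300 genes that were higher and the 8.23% that were lower. Of 14 genes at 20 CPM or more in collagen hydroxylation and folding, 5 were at least 2-fold higher and 0 lower in N-PRα-KO cells, with a median log2 ratio of 0.92, which was 0.15 with the GC trend removed. The 5 higher genes then all lay under the fold, with log2 ratios from 0.35 to 0.99. P4hb, the shared subunit of prolyl 4-hydroxylase, was at 342 CPM in N-PRα-KO and 106 CPM in WT cells. Ppib, a prolyl isomerase, was at 233 and 82.4 CPM. P3h1, a prolyl 3-hydroxylase, was at 30.4 and 10.1 CPM, and P4ha2, a catalytic subunit, at 22.7 and 8.12 CPM.

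Collagen VI receptors and partners gave 2 of 11 such genes at least 2-fold higher and 0 lower, beside 15.8% and 8.23% of all genes, with a median of 0.57 (0.47 with the GC trend removed). Bgn, the small proteoglycan biglycan that binds collagen VI, was at 1161 CPM in N-PRα-KO and 384 CPM in WT cells, and Matn2, a matrilin, at 29.7 and 13.5 CPM, and their log2 ratios with the GC trend removed were 0.72 and 1.36. Bmp1, a procollagen protease, and Itga3, an integrin chain, had log2 ratios of 0.83 and 0.79, which turned to -0.23 and -0.41 with the GC trend removed. Of the partners and proteases of the multiplexins, 3 of 11 were at least 2-fold higher and 1 was lower, beside 15.8% and 8.23% of all genes, with a median of 0.27 (-0.32 with the GC trend removed). Fbln2, an adaptor of basement membranes, was at 745 CPM in N-PRα-KO and 222 CPM in WT cells. Nrp1, a co-receptor, was at 88.5 and 27.5 CPM, Kdr, a receptor of vascular growth factor, at 35.2 and 15.5 CPM, and the glypican Gpc4 at 21.8 and 63.1 CPM. These 4 genes kept their direction and stayed past the fold with the GC trend removed (1.73, 1.15, 1.57 and -1.34). Kdr was also a leading gene of endothelial-like clusters, and the part of endothelial RNA in its fibroblast-like values was not tested.

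Other collagens were described by family, against the same shares of all genes. Of 7 fibrillar collagens at 20 CPM or more, 0 passed the fold in either direction, where 15.8% of all genes were higher and 8.23% lower, and their median was -0.50 (-0.09 with the GC trend removed). Col1a1 was at 4829 CPM in N-PRα-KO and 9241 CPM in WT cells, and Col27a1, the 1 chain above 0, at 96.3 and 54.9 CPM. Col11a1 and Col1a2 had log2 ratios of -0.66 and -0.60. Of 4 basement membrane collagens 2 were at least 2-fold higher and 0 lower, beside the same 15.8% and 8.23%, with a median of 0.49 (0.59 with the GC trend removed). Col4a2 was at 2778 and 771 CPM and Col4a1 at 5797 and 2784 CPM, and Col4a5 and Col4a6 had log2 ratios of -0.45 and -0.072, the first of which turned to 0.11 with the GC trend removed.

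Of the 8 remaining collagens at this level, 2 were at least 2-fold higher and 2 lower, beside 15.8% and 8.23% of all genes, with a median of 0.42 (0.01 with the GC trend removed). Col7a1, the anchoring fibril collagen, was at 147 CPM in N-PRα-KO and 11.99 CPM in WT cells. Col28a1 had 21.3 CPM in N-PRα-KO and 0 UMIs in WT cells, which is at least 4.20 higher on the log2 scale against a floor of 3 counts in the WT class. Col9a2 was at 46.1 and 101 CPM, and Col22a1 at 5.86 and 24.8 CPM.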

How the data were processed

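Single cells of mouse cortex and meninges were profiled on the BD Rhapsody whole-transcriptome platform, with 1 library per genotype. Per the file headers, the deposited count tables hold molecules per cell and gene, whole numbers after the authors' correction of molecular identifiers, made with pipeline versions 1.10 (N-PRα-KO) and 1.10.1 (WT), GRCm38 and GENCODE M19. The aligner and its settings are not given in the sources used here. The versions and run dates differ with genotype, so batch and genotype cannot be told apart.

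Cells that showed 300 or more genes and no more than 25% mitochondrial counts were kept (4196 N-PRα-KO, 10069 WT), and Scrublet in scanpy 1.11.5 removed 10 (0.238%) and 174 (1.73%) as doublets. Cells were clustered by Leiden (2000 variable genes per library, 30 components, 20 neighbours, resolution 1) without the 9 members, which gave 34 clusters, and classes were named from marker lists; 10 classes that had 50 or more cells from each library were compared. Counts were summed per class and library. CPM has exact Poisson intervals, shares exact Clopper-Pearson intervals and ratios exact conditional intervals, all at 95% and for counting error only. With 1 library per genotype there was no test. In ratios, a count under 3 was set to 3, and genes under 20 CPM in both groups were left out of counts. The GC trend was a lowess fit (fraction 0.3) on the GC content of the last 500 transcript bases in GENCODE M21, statsmodels 0.14.6. The ratio and trend steps were checked on simulated data.

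All members were named, with the 3 genes most correlated with each, up to 4 genes per list with the largest ratio in fibroblast-like cells, and the 5 leading genes of each sub-cluster. The members and the gene lists were chosen with earlier results of these data known. Leprel1 of the hydroxylation list matched no gene column. Matching sub-clusters between the libraries was chosen after seeing the data, and Cygb over Fndc1 was matched on the level of Col15a1, a member.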

Additional observations from a re-analysis of the deposited data

Results flagged for a closer look

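Col6a3 was lower in N-PRα-KO than in WT mural-like cells, with a log2 ratio of -1.72 (-3.08 to -0.11), and higher in N-PRα-KO fibroblast-like cells, with a log2 ratio of 0.39, so the measured ratios had opposite signs in these classes. With the GC trend removed both were below 0, at -2.15 in mural-like and -0.17 in fibroblast-like cells, and the fibroblast-like value was also below 0 in 4 other settings, from -0.56 to -0.046. The mural-like value rests on 20 UMIs in N-PRα-KO and 6 UMIs in WT cells (10.9 and 35.8 CPM). The difference between the classes was not tested, since each genotype had 1 library.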

How the results depend on the processing

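No paired analysis was possible because each genotype had 1 library and no comparison rests on a test. Of 408 values under alternative settings, 294 kept their sign and stayed close to the main value, 83 moved with the same sign and 31 changed sign, 6 of them for Col14a1 in fibroblast-like cells, whose interval included 0; the cause was not tested. Members at least 2-fold higher in N-PRα-KO fibroblast-like cells numbered 2, beside 15.8% of all genes. They numbered 3 without the cluster of 599 N-PRα-KO cells (13.8% of all genes), with no expression floor (14.8%) and for C4b over Ptgs2 (14.9%). In those settings 9 members were counted rather than 7. There was 1 with the GC trend removed (9.99%) and without the cluster that holds most WT cells (2 N-PRα-KO and 367 WT, 15.7%). The count was also 1 over the library-centred sub-clusters (13.3%) and for Cygb over Fndc1 (17.3%). It was 4 without the cluster of 33 N-PRα-KO and 131 WT cells (17.7%). Members at least 2-fold lower numbered 0 (8.23% of all genes), but 1 with the GC trend removed (7.05%), without the cluster of 367 WT cells (10.5%) and for Cygb over Fndc1 (9.87%). For C4b over Ptgs2 and Cygb over Fndc1, genes under 3 UMIs in either library had no value here, so shares differ from those above. The median of the members, 0.65, was 0.030 with the GC trend removed and 0.018 without the cluster of 367 WT cells, and also 0.14 without the cluster of 599 N-PRα-KO cells, 0.087 for Cygb over Fndc1, 0.32 over the library-centred sub-clusters and 1.05 without the cluster of 131 WT cells.

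Among the members in fibroblast-like cells, Col6a2 had a log2 ratio of -0.020 with the GC trend removed. That of Col6a3 was -0.17 with the GC trend removed, -0.32 under a stricter cell filter, -0.56 without the cluster of 599 N-PRα-KO cells, -0.046 without that of 367 WT cells and -0.048 for C4b over Ptgs2. That of Col12a1 was 0.030 with the GC trend removed, 0.11 under the stricter filter, 0.47 without the cluster of 131 WT cells and 0.47 for C4b over Ptgs2. That of Col14a1 was 0.036 without the mitochondrial limit, 0.15 with the GC trend removed, 0.63 after thinning, 0.74 for C4b over Ptgs2, and 1.22 and 1.26 without the clusters of 599 N-PRα-KO and 367 WT cells. That of Col15a1 was -0.11 without the cluster of 599 N-PRα-KO cells. The basement membrane median was -0.50 without the cluster of 599 N-PRα-KO cells, -0.068 without that of 367 WT cells and -0.13 with no expression floor. The median of the remaining collagens was -0.050 under the stricter filter, -0.44 without the cluster of 323 N-PRα-KO and 14 WT cells, -0.042 with no floor and -0.030 for Cygb over Fndc1. That of the multiplexin partners was -0.16 under the stricter filter and -0.32 with the GC trend removed. In arachnoid barrier-like cells, Col6a1 was -0.026 without the mitochondrial limit and -0.16 with the GC trend removed, and Col6a2 was -0.067 without that limit, -0.053 after thinning and -0.46 with the GC trend removed.

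The log2 ratio of Col18a1 in fibroblast-like cells ran from 0.75 to 2.65 over the settings, and the Col6a3 share of collagen VI in arachnoid barrier-like cells from 0.664% to 1.63% in N-PRα-KO and from 1.42% to 1.96% in WT cells. The stricter filter (1000 genes, 10% mitochondrial) left 80 N-PRα-KO and 9 WT fibroblast-like cells and 0 arachnoid barrier-like cells, so it was not run there, and under it the median of all genes was -0.52.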
